A study of Mus musculus with 9 samples.

Results

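The 10 genes described here are markers of the liver sinusoidal endothelial cell: Fcgr2b, Ptprb, Dnase1l3, Eng, Stab1, Stab2, Kdr, Clec4g, Lyve1 and Mrc1. They were taken by name, and all 10 were found among the 33732 gene names of a deposited table of exon values. The values come from RNA immunoprecipitation followed by sequencing (RIP-seq) on whole, healthy liver from wild-type C57BL/6 mice aged 8 weeks, a study whose stated aim was to find the RNAs that HuR targets in this organ. There were 3 pull-downs with an antibody against HuR (HuR RIP), 3 with control immunoglobulin (IgG RIP) and 3 libraries of lysate RNA (Input). All groups share strain, age and tissue, and the labels name no genetic change and no treatment. The pull-downs were native per the labels' protocols, and each pull-down used the liver of a single mouse. Input is given only as a mean, so it has no replicate error. Whole liver was lysed, and the labels name no sorting of cells. All 10 markers were above 0 in Input, at 0.0197 (Lyve1) to 1.10 RPKM (Eng).

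Liver sinusoids are lined by endothelial cells that have open pores and no continuous basement membrane, which lets plasma reach the hepatocytes. These cells are scavengers: they take up waste macromolecules and small immune complexes from the blood through a characteristic set of receptors. HuR, the product of Elavl1, is made in most cell types and holds on to RNA at stretches rich in U or in A and U, mostly in 3′ untranslated regions (3′ UTRs) and introns, and is best known for stabilising mRNAs. A native pull-down recovers RNA held in complexes with the protein, and the control antibody measures what sticks without it.

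The markers fall into clearance receptors (Stab1, Stab2, Mrc1, Lyve1, Fcgr2b), a lectin (Clec4g), vascular signalling receptors (Kdr, Eng, Ptprb) and a secreted nuclease (Dnase1l3). They differ in how much U-rich 3′ UTR they carry. The 30-base window with the most U in the 3′ UTR of the main transcript was read from the GENCODE M21 transcripts (GRCm38), for the 3 genes whose HuR RIP libraries all lay above all IgG RIP libraries, and for 5 of the 7 other markers, so that the range of the rest can be seen. Sequences are written 5′ to 3′ in the sense of the mRNA, with T for U, and capitals mark a match to the 7-letter motif TTTTTTT, the 7-letter motif TTTATTT or the 5-letter motif ATTTA.
Dnase1l3: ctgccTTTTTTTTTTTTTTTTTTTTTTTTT
Ptprb: atTTTATTTTTTTTTTTaagaattgtctat
Fcgr2b: cttcttcttcttcttcttcttcttcttctt
Mrc1: ttttttaattcaatatgattgtttcttttt
Lyve1: ctttcttttctttttactgttgctggtgtt
Kdr: tgctgcttagattttcaagtgttgttcttt
Stab2: ctgtcacttggatcatttgttttaaagtat
Stab1: agaccatttttattgcttgtcagggtggct
The Dnase1l3 window lies at chr14:7967721-7967750 (minus strand) and holds 26 U, 25 of them in one run. The Ptprb window, at chr10:116388457-116388486 (plus strand), holds 20 U, and so does the CUU repeat of Fcgr2b at chr1:170959693-170959722 (minus strand), whose TTTTTTT matches lie outside this window. The Mrc1 window, at chr2:14331234-14331263 (plus strand), also holds 20 U, and the Lyve1 window, at chr7:110851553-110851582 (minus strand), holds 19 U. Neither gene had separate groups, but both were too low to be tested, and Lyve1 had at most 7 reads in a library. Whether U content goes with separation was not tested. The windows of Kdr (chr5:75934338-75934367), Stab2 (chr10:86841496-86841525) and Stab1 (chr14:31139082-31139111), all on the minus strand, hold 16, 14 and 12 U, and those of Eng and Clec4g hold 14 U each. The median of the same maximum over 3929 tested protein-coding genes was 18 U. A longer 3′ UTR offers more windows to this maximum, and no allowance was made for length. The 3′ UTRs of Dnase1l3, Ptprb and Fcgr2b hold 3229, 5663 and 2400 bases, against a median of 1098 over the same genes. Those of Stab1, Stab2 and Clec4g hold 137, 407 and 354 bases, and that of Mrc1 885.

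Library sizes behind the values were 26.6, 26.3 and 26.9 M (mega) reads in HuR RIP 1, 2 and 3, and 15.9, 26.7 and 28.8 M reads in IgG RIP 1, 2 and 3. Protein-coding genes took 23.5%, 32.3% and 14.6% of the signal in listed exons in HuR RIP 1, 2 and 3, 18.2%, 13.2% and 9.67% in IgG RIP 1, 2 and 3, and 14.3% in Input. RPKM is set per unit of all reads of a library, and listed exons held 43.2%, 27.9% and 60.5% of these in HuR RIP 1, 2 and 3. In IgG RIP 1, 2 and 3 they held 54.0%, 44.3% and 45.7%, so the shares above are not the scale of the mRNA values. Relative to Input, the protein-coding signal was 1.55, 1.38 and 1.36 in HuR RIP 1, 2 and 3, and 1.51, 0.898 and 0.677 in IgG RIP 1, 2 and 3. The RPKM columns carry a letter after the replicate number (M, M and F within each pull-down), and the authors' fold columns number HuR RIP 2 and 3 the other way round. Xist, transcribed from the inactive X of females, had 0.00210, 10.2 and 0.463 RPKM in HuR RIP 1, 2 and 3, so the library whose column name ends in 2M was the highest. Summed RPKM of 4 Y-linked genes was 2.28, 0.0410 and 3.52 in the same libraries, so the column ending in 3F was not without them. In IgG RIP 1, 2 and 3, Xist had 0.00704, 0.103 and 0.359 RPKM, and the Y-linked sum was 1.21, 0.340 and 0 RPKM. There the column ending in 3F had the highest Xist and no Y-linked signal. The column names were followed, and since all HuR RIP libraries form 1 group, exchanging 2 and 3 changes no group value. HuR RIP 2 also stood apart for the markers: their summed RPKM was 11.02, 23.6 and 9.77 in HuR RIP 1, 2 and 3, 8.68, 2.04 and 5.62 in IgG RIP 1, 2 and 3, and 4.05 in Input. Without HuR RIP 2, 0 of the 7 markers tested passed the test described next, and the log2 fold changes without it are given gene by gene.

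Gene values are RPKM, reads per kilobase of listed exon and per mega read. A gene was tested where 3 or more of the 6 RIP libraries held 0.5 RPKM or more, and this kept 7 of the 10 markers among 5510 genes. HuR RIP and IgG RIP were compared by limma on log2(RPKM + 0.5), a scale that understates the change of low genes, with Benjamini-Hochberg adjusted p-values over all 5510 genes and a threshold of 0.05. None of the 7 markers passed it (0 higher, 0 lower), against 0.672% of all tested genes called higher and 0.127% called lower. With p not adjusted and under 0.05, 3 markers were higher in HuR RIP (Fcgr2b, Ptprb and Dnase1l3) and 0 lower, where 27.9% of all tested genes were higher. The median log2 fold change of the 7 markers was 1.10, against 0.92 over all tested genes, and 4 of the 7 lay above that median. Over tested protein-coding genes alone, the 7 markers among them, the median was 1.08. The libraries are labelled as separate pull-downs, but nothing states how the mice were matched, so p-values measure only the spread between these libraries.

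**Figure D1:**
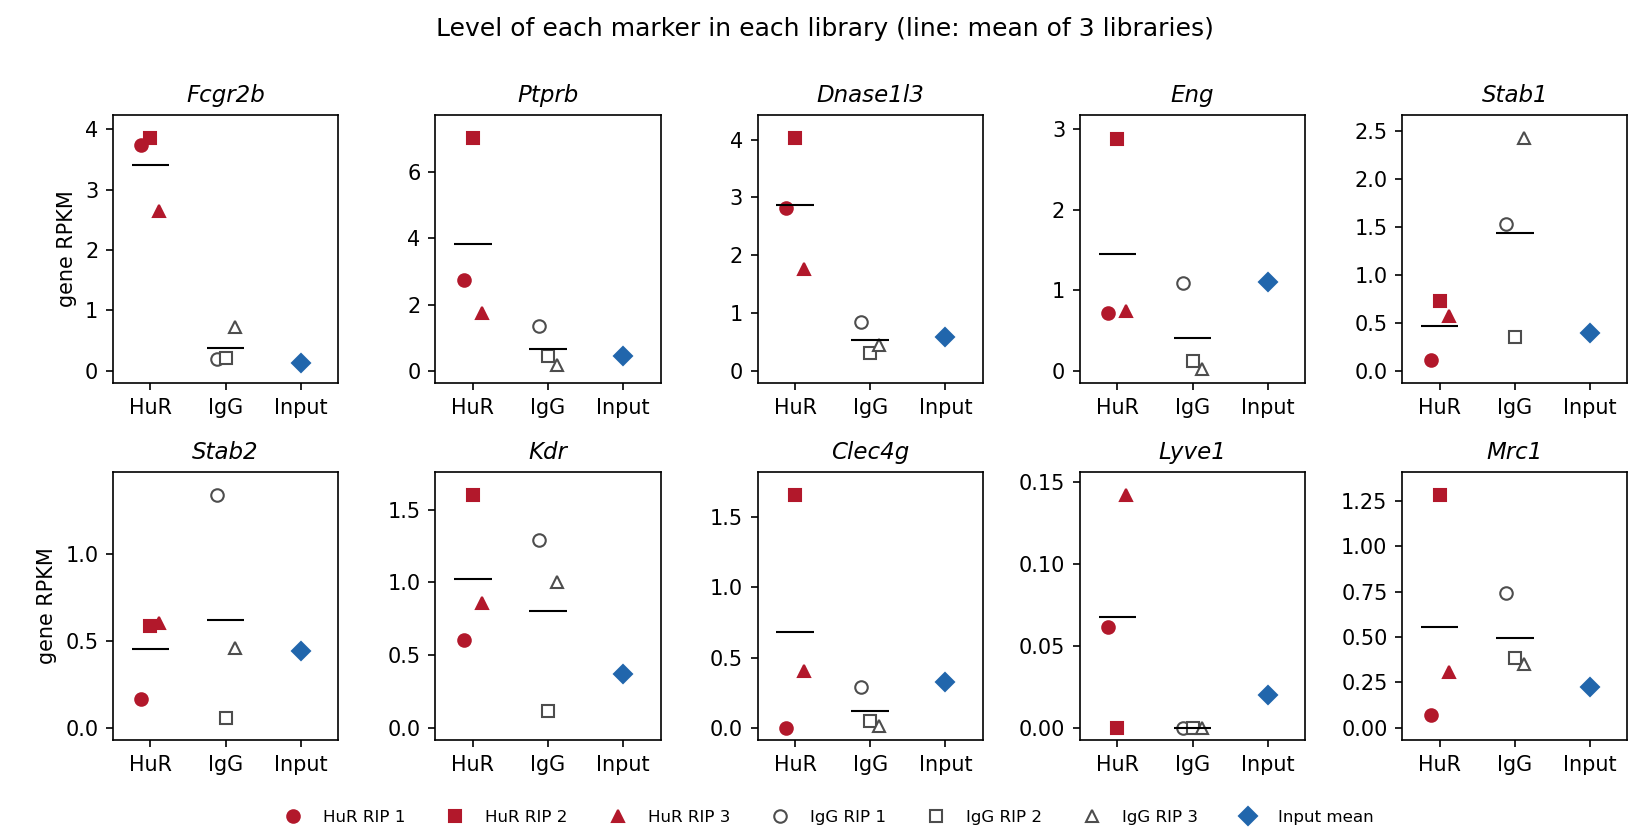
Gene RPKM (linear axis, its own scale per panel) of each of the 10 markers in every HuR RIP (red) and IgG RIP (open grey) library and in the Input mean (blue diamond), with a line at the mean of 3 libraries. In Fcgr2b, Ptprb and Dnase1l3 the 3 red points lie above the 3 open points, while in Stab1 the mean of the open points, 1.44, is above that of the red points, 0.472.

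Fcgr2b (chr1:170958617-170976547, minus strand, GRCm38) encodes the inhibitory Fc gamma receptor, with which sinusoidal endothelium clears small immune complexes, and which macrophages and B cells also carry. It had 3.74, 3.85 and 2.64 RPKM in HuR RIP 1, 2 and 3, against 0.204, 0.209 and 0.724 RPKM in IgG RIP 1, 2 and 3 and 0.126 RPKM in Input. The lowest HuR RIP library was above the highest IgG RIP library, and the IgG RIP libraries were all above Input. These values rest on 395 to 563 reads per HuR RIP library, and on 18, 31 and 116 reads in the IgG RIP libraries. HuR RIP averaged 3.41 ± 0.668 RPKM and IgG RIP 0.379 ± 0.299 RPKM (SD over 3 libraries each), so the ratio of means was 8.99. For Fcgr2b the log2 fold change was 2.19 (SE 0.71, limma adjusted p = 0.0759), which missed the threshold, and 2.10 without HuR RIP 2. It was the highest fold change among the markers in this fit. Over 20 single changes of setting the limma adjusted p of Fcgr2b ran between 0.0285 and 0.540, and it passed in 2 of them, with protein-coding genes only, where 18.5% of all genes were called higher, and with the last exon only, where 23.7% were.

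Stab1 (chr14:31139013-31168641, minus strand) and Stab2 (chr10:86841198-87008025, minus strand) encode the stabilins, large scavenger receptors that define this endothelium, and Stab1 is also made by macrophages. Stab1 had 0.115, 0.731 and 0.570 RPKM in HuR RIP 1, 2 and 3, against 1.53, 0.349 and 2.43 RPKM in IgG RIP 1, 2 and 3 and 0.390 RPKM in Input. Its groups overlapped, with the 2 highest values in IgG RIP 3 and 1. Its log2 fold change was -0.88 (SE 0.66, limma adjusted p = 0.344), and -1.08 without HuR RIP 2. Stab2 had 0.167, 0.586 and 0.602 RPKM in HuR RIP 1, 2 and 3, against 1.34, 0.0588 and 0.462 RPKM in IgG RIP 1, 2 and 3 and 0.445 RPKM in Input. All HuR RIP values of Stab2 lay inside the range of IgG RIP. For Stab2 the log2 fold change was -0.10 (SE 0.55, limma adjusted p = 0.896) and -0.22 without HuR RIP 2, a sign that turned without IgG RIP 1 (0.34) and without HuR RIP 1 (0.13).

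In several libraries most stabilin reads sat in clumps on a few exons, and in others they were spread. In IgG RIP 3, 319 of the 707 Stab1 reads (45.1%) fell on exon 34 of 69, which is 132 bases long, and a further 213 and 153 fell on exons 4 and 51. No other RIP library had a read on exon 34 or exon 51. In HuR RIP 2, 113 of 195 Stab1 reads (58.1%) fell on exon 22, of 112 bases. Stab2 had 31 of its 34 reads (91.2%) in HuR RIP 1 on one 96-base exon, and 64 of 102 (62.7%) in IgG RIP 3 on exon 19, of 63 bases. In HuR RIP 2, 75 of 118 Stab2 reads (63.6%) fell on one exon block of 208 bases. In IgG RIP 1 the reads were spread over 16 exon blocks besides the last exon for each gene, with 24.9% of Stab1 and 14.7% of Stab2 reads on the fullest one. In HuR RIP 3, Stab1 had reads on 11 blocks besides the last exon, with 23.2% on the fullest. Reads are not independent molecules, so the number of reads does not give the error of these values.

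**Figure D2:**
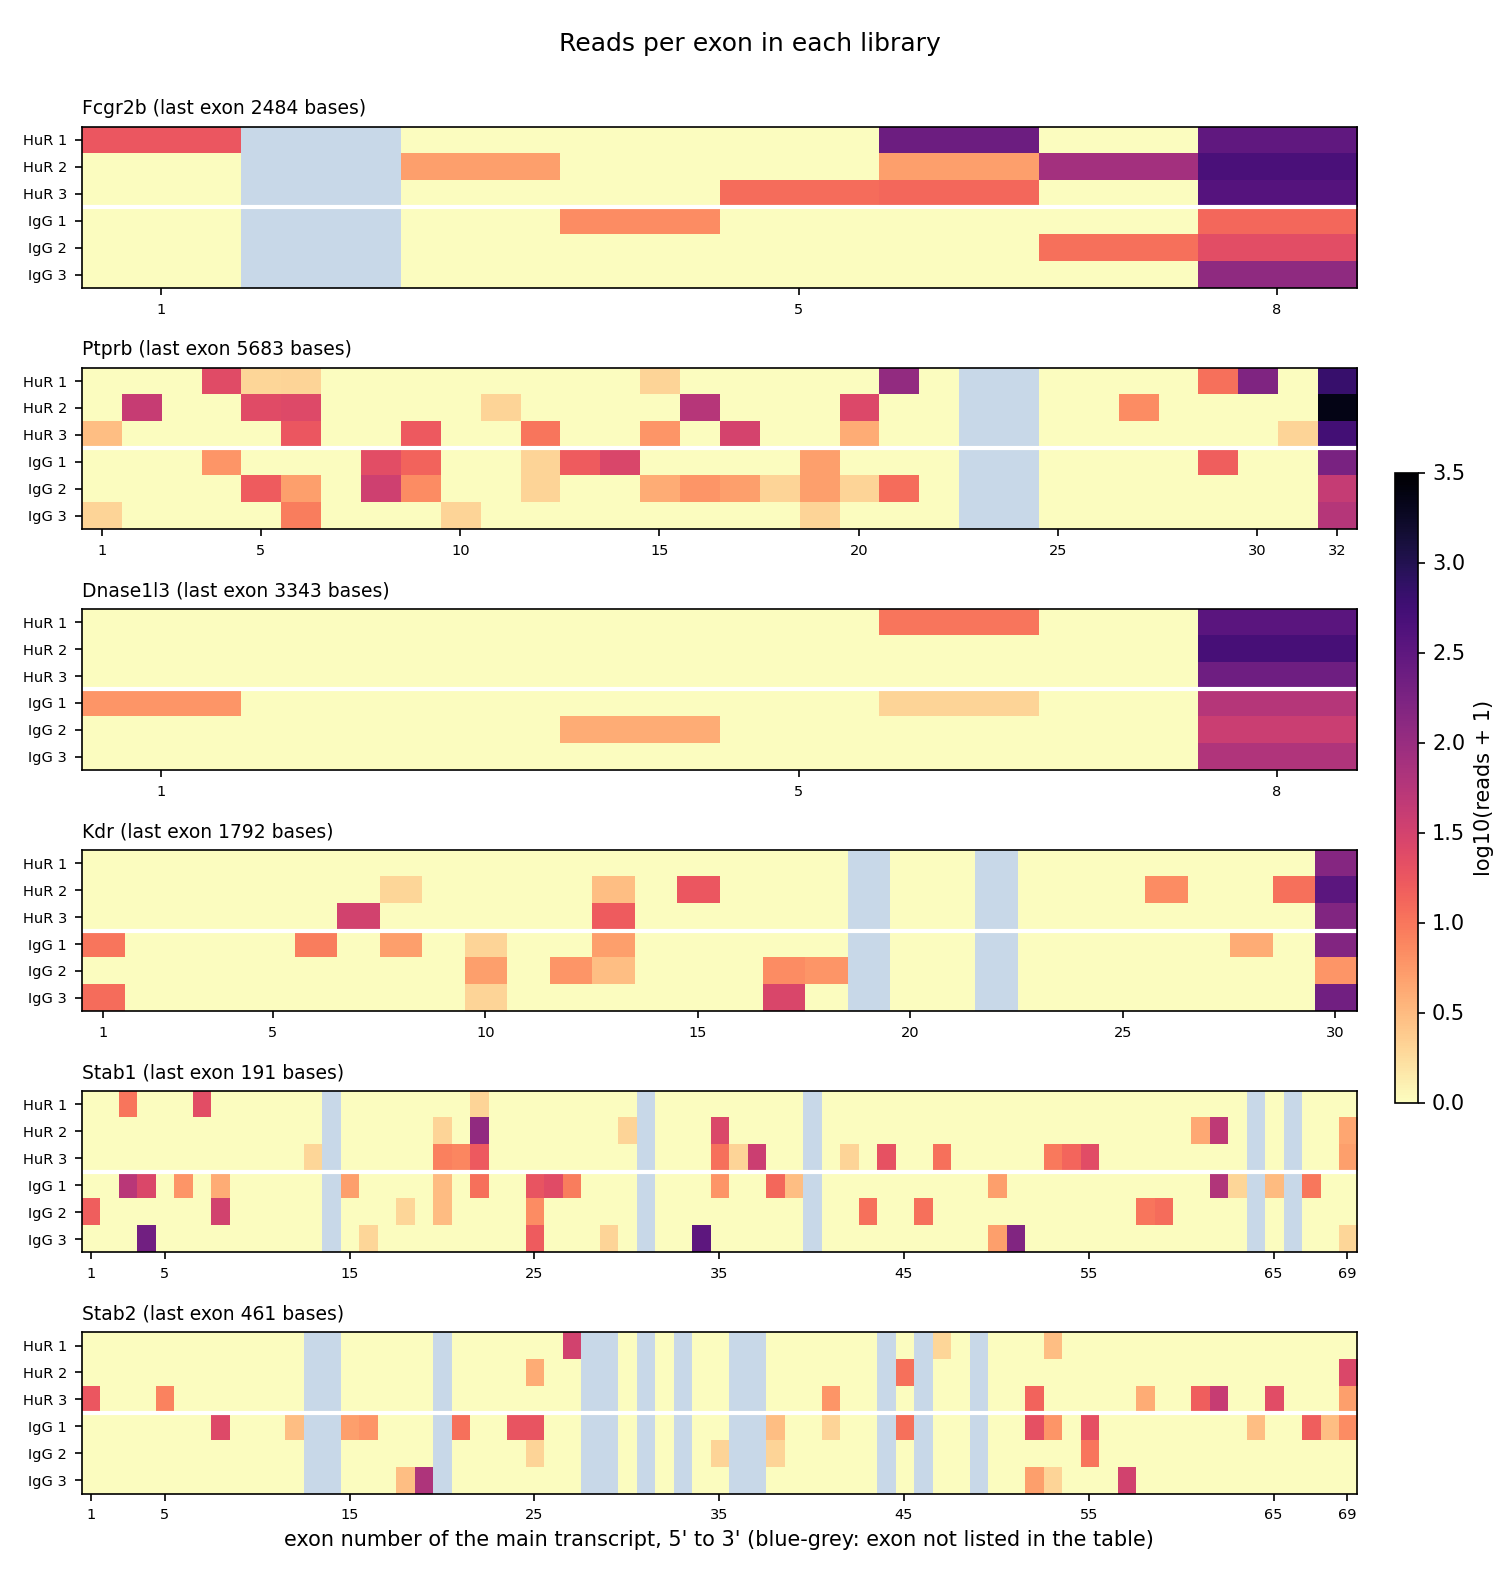
Reads per exon, on a log10(reads + 1) colour scale, in each HuR RIP and IgG RIP library for 6 markers, with exons of the main transcript in order from 5′ to 3′ (equal widths, not to length) and exons that the table does not list in blue-grey. Reads of Fcgr2b, Ptprb, Dnase1l3 and Kdr stack in the last exon in the HuR RIP libraries, and also in IgG RIP except for Ptprb and Kdr in IgG RIP 2 (26.6% and 18.5% there). Those of Stab1 and Stab2 lie on a few exons that differ between libraries, such as exon 34 of Stab1 in IgG RIP 3, or are spread, as in IgG RIP 1. Reads on listed exons outside the main transcript are not drawn, which leaves out most Stab2 reads of HuR RIP 2.

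Mrc1 (chr2:14229392-14332057, plus strand), the mannose receptor CD206, and Lyve1 (chr7:110850607-110863239, minus strand), a hyaluronan receptor, did not reach the filter and were not tested. Mrc1 had 0.0705, 1.28 and 0.304 RPKM in HuR RIP 1, 2 and 3, against 0.743, 0.384 and 0.349 RPKM in IgG RIP 1, 2 and 3 and 0.222 RPKM in Input, so the groups overlapped. Lyve1 had 3, 0 and 7 reads in HuR RIP 1, 2 and 3 and 0 reads in each IgG RIP library, where 0 reads allow up to 0.103 RPKM in IgG RIP 1, the shallowest. For Lyve1 the table lists only 2 of the 6 exons of the main transcript, and its Input value was 0.0197 RPKM. Clec4g (chr8:3707064-3720651, minus strand), a C-type lectin also called LSECtin, was below the filter too. It had 0, 1.66 and 0.401 RPKM in HuR RIP 1, 2 and 3, against 0.288, 0.0467 and 0.0144 RPKM in IgG RIP 1, 2 and 3 and 0.324 RPKM in Input. HuR RIP 2 alone carried 105 of the 131 Clec4g reads of the group, and in HuR RIP 1 a count of 0 allows up to 0.0468 RPKM.

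Among the signalling receptors, Ptprb (chr10:116275523-116389535, plus strand) encodes VE-PTP, an endothelial tyrosine phosphatase that acts on the Tie2 receptor and VE-cadherin. It had 2.73, 7.02 and 1.75 RPKM in HuR RIP 1, 2 and 3, against 1.36, 0.437 and 0.178 RPKM in IgG RIP 1, 2 and 3 and 0.464 RPKM in Input. The groups did not overlap, but HuR RIP 2 was far above the other HuR RIP libraries and HuR RIP 3 was close to IgG RIP 1. With 623 to 2447 reads per HuR RIP library it was the most deeply covered marker. HuR RIP averaged 3.83 ± 2.80 RPKM and IgG RIP 0.658 ± 0.620 RPKM (SD over 3 libraries each). For Ptprb the log2 fold change was 1.84 (SE 0.76, limma adjusted p = 0.115), and 1.35 without HuR RIP 2.

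Eng (chr2:32646595-32682669, plus strand) encodes endoglin, a co-receptor for BMP9 and TGF-beta. It had 0.713, 2.88 and 0.739 RPKM in HuR RIP 1, 2 and 3, against 1.09, 0.128 and 0.0182 RPKM in IgG RIP 1, 2 and 3 and 1.10 RPKM in Input. IgG RIP 1 was above HuR RIP 1 and 3, so the groups overlapped, and only HuR RIP 2 was above Input. The log2 fold change of Eng was 1.10 (SE 0.65, limma adjusted p = 0.238), 0.61 without HuR RIP 2, and -0.0024 when library medians were set equal. Listed exons of Fpgs overlap Eng on the other strand, and strand use in counting is not given in the sources used here, so reads there could belong to either gene. The same holds for Nt5dc2 with Stab1, Gm38204 with Fcgr2b and Gm16553 with Clec4g.

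Kdr (chr5:75932827-75978458, minus strand) encodes VEGFR2, the main receptor for VEGF-A. It had 0.605, 1.60 and 0.855 RPKM in HuR RIP 1, 2 and 3, against 1.29, 0.115 and 1.003 RPKM in IgG RIP 1, 2 and 3 and 0.371 RPKM in Input. IgG RIP 1 and 3 lay within the range of HuR RIP, and IgG RIP 2 was low. Kdr had a log2 fold change of 0.31 (SE 0.66, limma adjusted p = 0.739), which was 0.05 without HuR RIP 2 and below 0 under each of 3 other scalings and without IgG RIP 2.

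Dnase1l3 (chr14:7964533-7994573, minus strand) encodes a secreted DNase that digests chromatin carried in blood. It had 2.82, 4.03 and 1.76 RPKM in HuR RIP 1, 2 and 3, against 0.837, 0.316 and 0.446 RPKM in IgG RIP 1, 2 and 3 and 0.587 RPKM in Input. The groups did not overlap, and IgG RIP 2 and 3 were below Input. HuR RIP averaged 2.87 ± 1.14 RPKM and IgG RIP 0.533 ± 0.271 RPKM (SD over 3 libraries each). For Dnase1l3 the log2 fold change was 1.68 (SE 0.71, limma adjusted p = 0.122), and 1.44 without HuR RIP 2.

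Groups that do not overlap were common in these data. All 3 HuR RIP libraries were above all 3 IgG RIP libraries for 3 of the 7 tested markers and for 31.3% of all tested genes, and the opposite order was found for 0 markers and for 3.48% of all tested genes. Set against the median change of all genes, 0.92, the log2 fold changes of Fcgr2b, Ptprb and Dnase1l3 were higher by 1.27, 0.93 and 0.76, Eng by 0.18, and Kdr, Stab2 and Stab1 differed from it by -0.61, -1.02 and -1.80. In the authors' deposited table the lowest q-value of an exon of each marker was 0.541, and 0 of the exons with a q-value were under 0.05, the lowest of all being 0.110.

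By mean RPKM in HuR RIP, the order was Ptprb (3.83), Fcgr2b (3.41), Dnase1l3 (2.87), Eng (1.44), Kdr (1.02), Clec4g (0.686), Mrc1 (0.553), Stab1 (0.472), Stab2 (0.452) and Lyve1 (0.0679). Library ranges of neighbours in this order overlapped in every case but Stab2 and Lyve1. In IgG RIP the order began with Stab1 (1.44) and Kdr (0.802), and Fcgr2b was in place 8. In Input it began with Eng (1.10), Dnase1l3 (0.587) and Ptprb (0.464), and Fcgr2b, at 0.126 RPKM, was in place 9. By mean, Fcgr2b was thus near the end of the list in lysate and in IgG RIP, and in place 2 in HuR RIP. The IgG RIP libraries differed in this. In IgG RIP 1 only Lyve1 was below Fcgr2b (0.204 RPKM). In IgG RIP 3 only Stab1 (2.43 RPKM) and Kdr (1.003 RPKM) were above Fcgr2b (0.724 RPKM).

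Against Input, which allows no test, Fcgr2b, Ptprb, Dnase1l3 and Kdr exceeded the Input mean in each HuR RIP library. These were 4 of the 7 tested markers, against 68.9% of all tested genes, and none of the 3 markers below the filter did so. In all 3 IgG RIP libraries Fcgr2b was above it, 1 of the 7 tested markers against 20.7% of all tested genes, and so was Mrc1, which was below the filter. The log2 ratio of Fcgr2b to Input was 2.76, 2.80 and 2.33 in HuR RIP 1, 2 and 3, against 0.17, 0.18 and 0.97 in IgG RIP 1, 2 and 3. For Ptprb it was 1.75, 2.96 and 1.22 in HuR RIP 1, 2 and 3, against 0.95, -0.04 and -0.51 in IgG RIP 1, 2 and 3. Without HuR RIP 1, 8 of the 10 were above Input in both remaining HuR RIP libraries, and without IgG RIP 2 the count in IgG RIP was 5. Rescaled to the sum of protein-coding genes, the counts over all 10 were again 4 in HuR RIP and 2 in IgG RIP. In bulk libraries such as these, fewer cells of a type and less RNA per cell cannot be told apart.

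The reads of Dnase1l3, Ptprb, Fcgr2b and Kdr lay mostly in the last exon in all HuR RIP libraries. The last exon, which holds the 3′ UTR in these genes, is 5683 bases in Ptprb, 3343 in Dnase1l3, 2484 in Fcgr2b, 1792 in Kdr, 1752 in Lyve1, 1222 in Eng, 1136 in Mrc1, 493 in Clec4g, 461 in Stab2 and 191 in Stab1, against a median of 1333 over 3929 tested protein-coding genes. Dnase1l3 had 97.5%, 100% and 100% of its signal there in HuR RIP 1, 2 and 3, against 90.5%, 92.5% and 100% in IgG RIP 1, 2 and 3 and 36.6% in Input. Ptprb had 68.4%, 92.97% and 86.7% in HuR RIP 1, 2 and 3, against 64.9%, 26.6% and 83.8% in IgG RIP 1, 2 and 3 and 31.7% in Input. Fcgr2b had 55.2%, 84.4% and 94.2% in HuR RIP 1, 2 and 3, against 66.7%, 67.7% and 100% in IgG RIP 1, 2 and 3 and 24.1% in Input. For Dnase1l3, Ptprb and Fcgr2b the shares overlapped between the pull-downs. Both pull-downs were above Input in every library for Fcgr2b and Dnase1l3, and in every library but IgG RIP 2 for Ptprb.

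A clump lowered the Fcgr2b share in HuR RIP 1, where 231 of 553 reads (41.8%) fell on the 141-base exon 6 of 8. Kdr had 100%, 90.3% and 77.3% of its signal in the last exon in HuR RIP 1, 2 and 3, against 83.9%, 18.5% and 84.7% in IgG RIP 1, 2 and 3 and 45.5% in Input. The stabilins differed: Stab1 had 0%, 1.80% and 2.62% there in HuR RIP 1, 2 and 3, against 0%, 0% and 0.139% in IgG RIP 1, 2 and 3 and 0.516% in Input. The median share over tested protein-coding genes with at least 3 exons was 87.9%, 70% and 87.9% in HuR RIP 1, 2 and 3, against 53.0%, 42.9% and 27.6% in IgG RIP 1, 2 and 3 and 43.1% in Input. A last-exon share higher in HuR RIP than in Input was thus also found for the median gene.

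**Figure D3:**
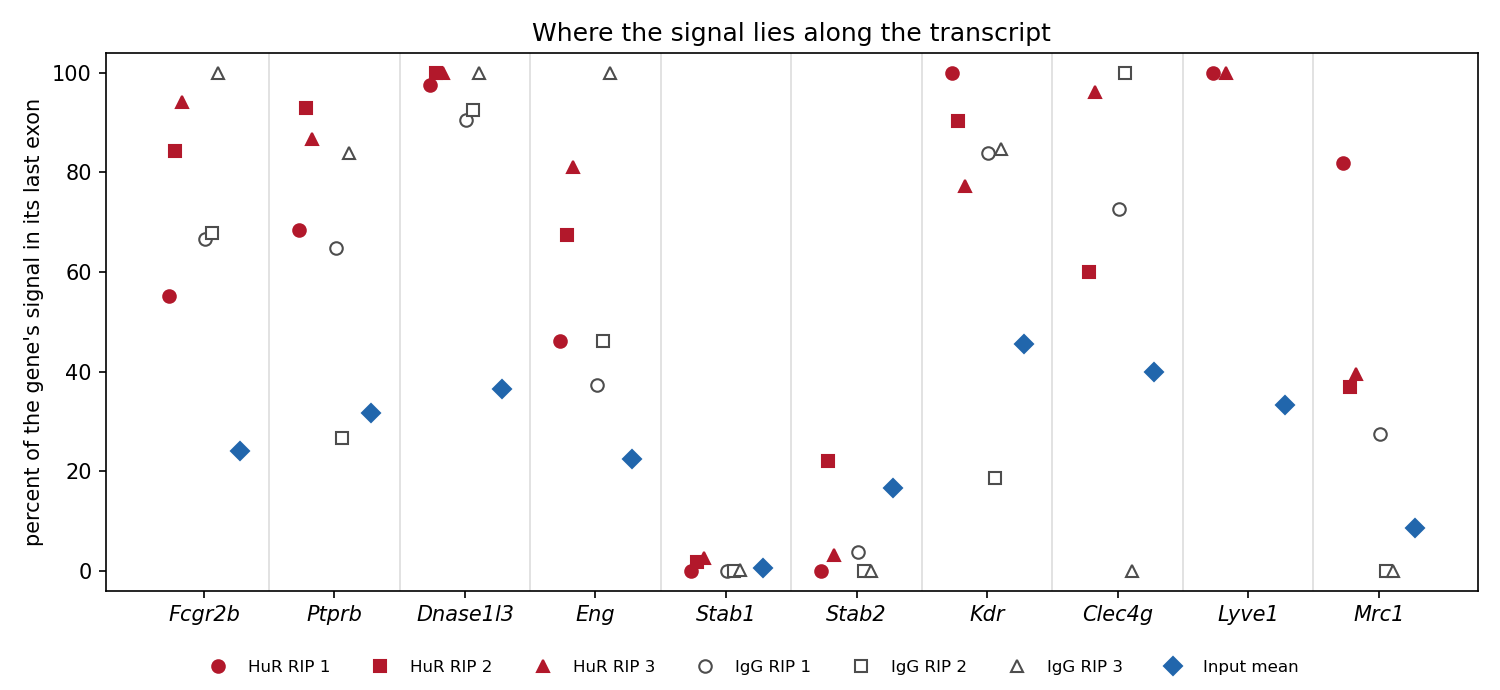
Percent of each marker's signal that lies in the last exon of its main transcript, in each HuR RIP library (red), each IgG RIP library (open grey) and the Input mean (blue diamond), with no point where a library has no read. Dnase1l3 is at 90.5% or more in all 6 RIP libraries and at 36.6% in Input, while Stab1 is at 2.62% or less throughout.

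Fitted on last exons alone, a choice made after seeing the data, 898 of 3786 genes (23.7%) were called higher in HuR RIP and 0.0528% lower, and the median log2 fold change of all genes was 1.60. Of the 6 markers tested there, Fcgr2b passed the threshold. Its last exon had 4.61, 7.26 and 5.56 RPKM in HuR RIP 1, 2 and 3, against 0.305, 0.317 and 1.62 RPKM in IgG RIP 1, 2 and 3 and 0.0678 RPKM in Input, a log2 fold change of 2.48 (SE 0.86, limma adjusted p = 0.0446). The call was lost without any 1 of the 3 HuR RIP libraries, without IgG RIP 2 and without IgG RIP 3 (limma adjusted p between 0.0645 and 0.164), and at equal library medians, where the log2 fold change of Fcgr2b was 0.61 (limma adjusted p = 0.770). At equal medians 0 of all genes were called higher on the last exon. The last exon of Ptprb had 4.35, 15.2 and 3.53 RPKM in HuR RIP 1, 2 and 3, against 2.05, 0.271 and 0.348 RPKM in IgG RIP 1, 2 and 3, a log2 fold change of 2.51 (SE 0.91, limma adjusted p = 0.0511). Dnase1l3, Eng, Clec4g and Kdr had last-exon log2 fold changes of 1.88, 1.60, 1.17 and 0.87, with limma adjusted p between 0.0831 and 0.461, and at equal medians those of Eng, Clec4g and Kdr were below 0. The equal-median values were 0.64 for Ptprb and 0.014 for Dnase1l3, with the median of all genes at -0.27.

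Fitted on all other exons, 0 of 1913 genes were called by limma, with 124 higher and 46 lower when p below 0.05 is not adjusted, and the median log2 fold change was 0.36. The 4 markers with enough signal there had log2 fold changes of 0.56 (Ptprb), 0.57 (Eng), -0.37 (Mrc1) and -0.90 (Stab1), with limma adjusted p between 0.722 and 0.878. For Ptprb the same libraries thus gave 2.51 on the last exon and 0.56 on the other exons. The difference between the exon classes was not tested.

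**Figure D4:**
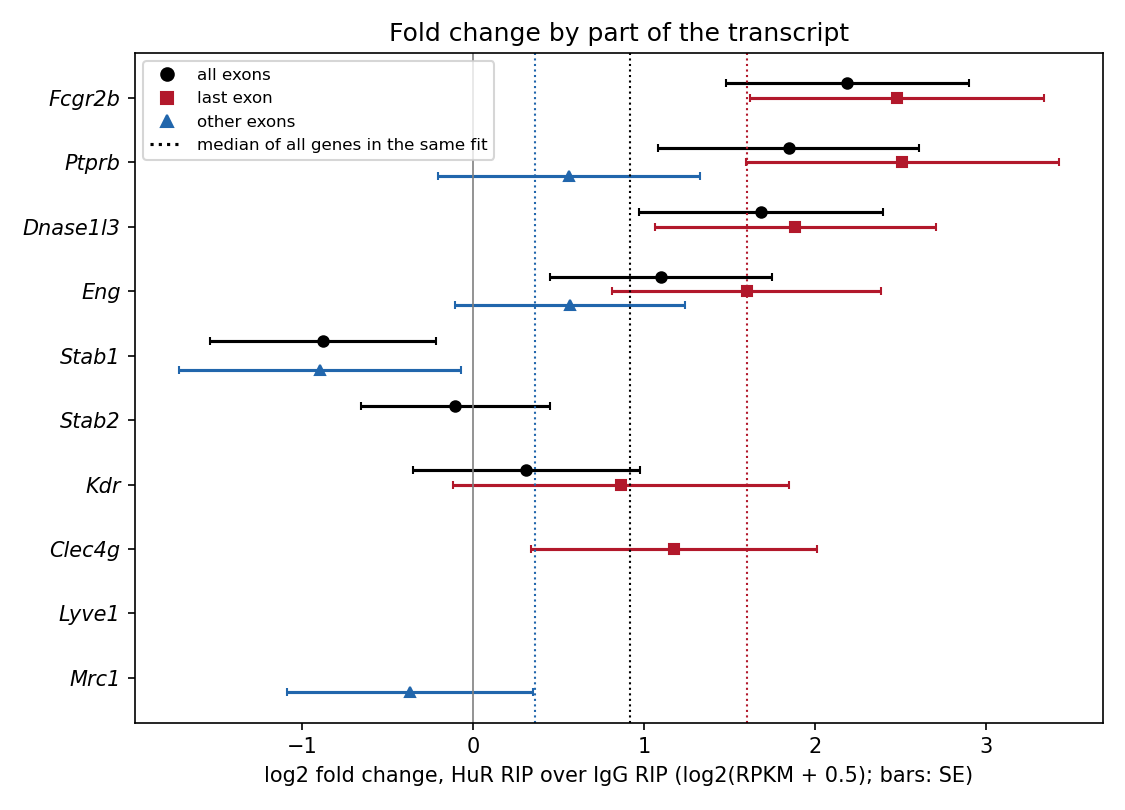
Log2 fold change of HuR RIP over IgG RIP with its SE for each marker, from all exons (black), the last exon (red) and the other exons (blue), with a dotted line at the median of all genes in the same fit (0.92, 1.60 and 0.36). Points are missing where the marker did not pass the filter of that fit. Fcgr2b and Ptprb lie to the right of the median in the all-exon and last-exon fits, Stab1 to the left of 0.

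The full 3′ UTRs were searched for TTTTTTT, for TTTATTT with its single A, for the pentamer ATTTA and for the longer TATTTAT, on the sense strand only and counting overlapping matches, so that a TATTTAT also counts as an ATTTA match. The run TTTTTTT was found 23 times in Dnase1l3, mostly within the run of 25, 7 times in Ptprb, 4 times in Fcgr2b, 2 times in Lyve1, 1 time in Mrc1 and 0 times in the other 5 markers. The motif TTTATTT was found 3 times in Ptprb, 2 times in Fcgr2b, 1 time in Eng and 0 times in the other 7, Dnase1l3 included. The longer TATTTAT was found 2 times in Mrc1, 1 time each in Ptprb and Kdr and 0 times in the other 7, Fcgr2b and Dnase1l3 included. Of 3929 tested protein-coding genes, 44.9% hold TTTTTTT, 39.7% hold TTTATTT, 66.9% hold ATTTA and 25.9% hold TATTTAT. A run of at least 25 U, as in Dnase1l3, was found in 46 of them (1.17%). ATTTA was found 11 times in Ptprb, 5 in Mrc1, 3 in Lyve1, 2 each in Fcgr2b, Dnase1l3, Eng and Kdr, and 0 times in Stab1, Stab2 and Clec4g. The 3′ UTRs differ in length, from 5663 bases in Ptprb to 137 in Stab1, and these counts are not scaled to length. A match is a description of the letters, and no match says only that these letters are absent from this stretch.

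Elavl1 itself, whose mRNA HuR is known to bind, had 0.950, 0.304 and 0.990 RPKM in HuR RIP 1, 2 and 3, against 0.523, 0.0253 and 0.0134 RPKM in IgG RIP 1, 2 and 3 and 0.0950 RPKM in Input. IgG RIP 1 was above HuR RIP 2, so the groups overlapped. Its log2 fold change was 0.88 (SE 0.51, limma adjusted p = 0.228), which is 0.03 under the median of all genes, and -0.22 at equal library medians.

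A list of 61 other gene names of liver endothelium was compared with the markers. Of these names 60 were in the table, all but Sdpr, and 21 were tested. Of the 21, 0 were called by limma and 5 were higher and 0 lower with an unadjusted p below 0.05, against 27.9% of all tested genes higher. The median log2 fold change of the 21 was 0.95, against 0.92 over all tested genes, and 11 of the 21 lay above the latter. It was below the median over tested protein-coding genes alone, 1.08. All HuR RIP libraries were above all IgG RIP libraries for 4 of the 21, against 31.3% of all tested genes. The members with the smallest p were Adgrf5 (an adhesion receptor), Maf (a transcription factor), Calcrl (the receptor of adrenomedullin, with Ramp2) and Gpr182 (a decoy receptor for chemokines), with log2 fold changes of 1.65, 1.97, 1.35 and 1.73 and limma adjusted p of 0.0771, 0.0907, 0.113 and 0.123. Adgrf5 had 1.72, 1.23 and 1.046 RPKM in HuR RIP 1, 2 and 3, against 0.259, 0.00435 and 0 RPKM in IgG RIP 1, 2 and 3. On the last exon alone, 3 of 20 members were called higher, against 23.7% of all genes: Adgrf5 at 2.54, Plvap (a protein of endothelial diaphragms) at 2.42 and Egfl7 (a secreted endothelial factor) at 1.83 on the log2 scale, with limma adjusted p of 0.0257, 0.0386 and 0.0386. Leaving out 1 library at a time gave between 0 (without HuR RIP 3, IgG RIP 2 or IgG RIP 3) and 7 such calls (without IgG RIP 1), and equal medians gave 0. Without IgG RIP 1, 7 of 20 members were thus called, where 1764 of all 3786 genes were. The summed RPKM of the list was 57.9, 70.0 and 34.7 in HuR RIP 1, 2 and 3, 29.9, 8.02 and 20.0 in IgG RIP 1, 2 and 3, and 12.6 in Input. Pdpn, a marker of lymphatic endothelium, had 0 reads in every RIP library.

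Fcgr2b, Stab1 and Mrc1 are also made by Kupffer cells, so the markers of other liver cells are given beside them. Of 18 Kupffer cell and macrophage markers, 10 were tested and 0 were called by limma. With an unadjusted p below 0.05, 1 was higher and 0 lower, against 27.9% of all tested genes higher. The median log2 fold change of the 10 was 0.71, against 0.92 over all tested genes. The summed RPKM of the 18 was 20.7, 33.6 and 25.1 in HuR RIP 1, 2 and 3, 18.3, 6.28 and 36.1 in IgG RIP 1, 2 and 3, and 12.1 in Input, so the groups overlapped. The smallest p-values of that list belonged to Lyz2, Vsig4, Slc40a1 and Csf1r, with log2 fold changes of 1.95, 0.85, 0.98 and 0.76 and limma adjusted p between 0.117 and 0.375. On the last exon alone 1 of 8 was called higher, against 23.7% of all genes: Slc40a1 at 2.82 (limma adjusted p = 0.0348). Clec4f, which defines mouse Kupffer cells, had 0.715, 2.38 and 0.662 RPKM in HuR RIP 1, 2 and 3, against 1.17, 0.471 and 3.12 RPKM in IgG RIP 1, 2 and 3. Their part in the marker values was not tested.

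Of 12 hepatocyte genes, all were tested and 0 were called by limma. With an unadjusted p below 0.05, 2 were higher, against 27.9% of all tested genes. For 6 of the 12 all HuR RIP libraries were above all IgG RIP libraries, against 31.3% of all tested genes. On the last exon alone 7 of the 12 were called higher, against 23.7% of all genes there, and 1 of 6 sinusoidal markers was. The 7 were Alb, Serpina1a, Ttr, Cps1, Ass1, Serpina1c and Hnf4a, with Alb highest at 5.66 on the log2 scale (limma adjusted p = 0.0146). The difference between these lists was not tested. Alb, for albumin, had 430.2, 442.2 and 443.6 RPKM in HuR RIP 1, 2 and 3, against 290.7, 134.7 and 345.4 RPKM in IgG RIP 1, 2 and 3 and 411.9 RPKM in Input. The endothelial markers were thus read at a level far below that of the main liver cell. Of 14 stellate cell markers 7 were tested and 0 called, with Rgs5 and Lrat first by p (log2 fold changes of 2.12 and 1.32, limma adjusted p of 0.0991 and 0.132). Of 8 cholangiocyte markers 2 were tested and 0 called, Spp1 at 3.04 (limma adjusted p = 0.0566) and Sox9 at 0.50, and Spp1 was called higher on the last exon (3.61, limma adjusted p = 0.0250). On the last exon 0 of 4 stellate cell markers and 0 of 5 erythroid genes were called. Of 6 erythroid genes 5 were tested and 0 called. For Hbb-bs and Hbb-bt all HuR RIP libraries were below all IgG RIP libraries, an order found for 3.48% of all tested genes. On the last exon the log2 fold changes of Hbb-bs and Hbb-bt were 0.77 and 1.85. Of 12 lymphocyte markers 11 were in the table and 0 tested, with Cd8a, Nkg7 and Klrb1c at 0 reads in every RIP library.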

How the data were processed

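RIP-seq libraries of mouse liver (3 HuR RIP, 3 IgG RIP, 3 Input) were analysed from a deposited table of exon values. Per the submitters' processing notes, Bowtie2, featureCounts and mm10 were used in versions not given in the sources used here. As deposited, the table holds RPKM per exon, computed by the authors, with Input as a mean. Deposited fold columns by the authors hold log2 ratios of RPKM + 1 over Input + 1, and a deposited q-value per exon comes from a test that no source used here describes. Across 388562 lines, the decimal mark was missing from numbers of at least 1. It was put back so that the 6 fold columns were met, and of 138826 distinct lines 4 had more than 1 possible reading. Reads on overlapping listed exons were split between lines, so RPKM times length was summed per gene and divided by the length of its merged listed exons. Of 210966 exons, 99.3% have the coordinates of an exon in GENCODE M21 (GRCm38), which gave positions, transcripts and 3′ UTRs.

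Library sizes were read from the step between values, and 84.9% to 89.0% of gene sums came out as whole reads (tolerance 0.05 read). The depth of Input is unknown, and read numbers cover counting error only, with an upper limit of 3 reads where 0 were counted. HuR RIP was compared with IgG RIP with limma 3.58.1 in R 4.3.3 (trend and robust moderation, two-sided) on log2(RPKM + 0.5). No count model was used, since reads are split between lines. The fit was tested on simulated data. Tables and figures were made in Python 3.11.15 with pandas 2.3.3, numpy 2.4.6 and matplotlib 3.10.9. Alternatives were 3 other scalings (equal library medians, TMM-like factors on the RPKM, quantiles), no filter and a filter of 1 RPKM, pseudocounts of 0.1 and 1, no moderation by trend, a replicate block, protein-coding genes only, exon lines counted once, and leaving out libraries. The fits of the last exon and of the other exons (genes with at least 3 exons) and their alternatives were added after seeing the data. The genes named are all 10 markers, Elavl1, and of each other list up to 4 tested members by smallest p and any past the threshold, besides Clec4f, Alb, Sox9 and genes at 0, which were chosen after their values were seen. The markers and lists were chosen with earlier results of these data known.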

Additional observations from a re-analysis of the deposited data

How the results depend on the processing

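The HuR RIP against IgG RIP comparison called 44 genes (37 higher, 7 lower), and this count depended on nearly every choice. It was 19 with library medians set equal (1 higher, 18 lower), 392 with TMM-like scaling (50 higher, 342 lower) and 9 with quantile normalization, scalings that moved the median log2 fold change of all genes from 0.92 to -0.18, 0.09 and 0.05. It was 166 with a filter of 1 RPKM, 4 with a pseudocount of 1 and 736 with protein-coding genes only (728 higher, 8 lower). It was 0 with no filter (with 1193 higher and 101 lower when p below 0.05 is not adjusted), with no trend or robust moderation (1437 and 192), with exon lines counted once (1513 and 161), and without HuR RIP 3 and IgG RIP 1 together (2097 and 81). Leaving out 1 library gave 0 (without IgG RIP 2, with 803 and 218) to 741 (without IgG RIP 1). The cause was not tested.

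Of the markers, 1 was called with protein-coding genes only (Fcgr2b, limma adjusted p = 0.0285, in a fit that called 18.5% of all genes higher) and 1 on the last exon only (23.7%), and 0 under every other setting of the fit on all exons, leaving out 1 library included (0 to 0). Fcgr2b, Ptprb and Dnase1l3 were higher in HuR RIP under each single change of setting, with the lowest log2 fold changes at 1.02, 0.56 and 0.58. On the last exon the other scalings took them lower, to 0.61 for Fcgr2b, 0.61 for Ptprb and 0.0016 for Dnase1l3. Eng reversed to -0.0024 at equal medians. Kdr reversed to -0.79, -0.55 and -0.52 with equal medians, TMM-like scaling and quantiles, and ran between -0.16 and 0.61 with 1 library left out. Stab2 ran between -0.52 and 0.34 with 1 library left out, and reversed to 0.21 without HuR RIP 3 and IgG RIP 1. The other endothelial list had 2 of 21 called with protein-coding genes only, against 736 of 3943 genes. With 1 library left out it had 0 to 3 of 21. Of the markers of other liver cells, 2 of 36 were called with TMM-like scaling, against 392 of 5510 genes. The count was 1 of 25 with a filter of 1 RPKM, against 166 of 3458 genes, and 4 of 36 with protein-coding genes only. With 1 library left out it was 0 to 3 of 36. For both lists the 3 came without IgG RIP 1, where 741 of 5510 genes were called.

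On the last exon only, the 900 genes called became 2 at equal medians, 3 with TMM-like scaling, 0 with quantiles, and 2 to 1764 with 1 library left out. The marker called there became 0 under each of the 3 scalings and 0 to 3 with 1 library left out, and the 3 other endothelial calls became 0 under each scaling and 0 to 7. The highest counts, 3 and 7, came without IgG RIP 1, where 1764 of 3786 genes were called. At equal medians and with quantiles, last-exon fold changes reversed to -0.27 and -0.13 for Eng and to -0.70 and -0.095 for Clec4g, and for Kdr to -1.01 and -0.78, with -0.82 under TMM-like scaling and -0.17 to 1.46 with 1 library left out. Markers above Input in all HuR RIP libraries numbered 4 to 8, and in all IgG RIP libraries 2 to 5, with 1 library left out. The median share of the markers' signal in the last exon was 78.0% in HuR RIP (64.9% to 81.0% with 1 library left out) and 58.4% in IgG RIP (45.8% to 68.6%).

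With the replicate number as a block, 0 genes and 0 markers were called (1665 genes higher and 238 lower when p is not adjusted), and with HuR RIP 2 and 3 exchanged in that block also 0 (1653 and 209). The plan of the fit used the replicate number as a block only in an alternative. Deviations of same-numbered libraries correlated at 0.14, 0.12 and 0.09, and those of other numbers at -0.089 to -0.0015. Each library thus correlated best with its own number, and whether the libraries are matched was not tested. Few reads limit the low markers: Lyve1 had at most 7 reads in a library and Clec4g at most 26 outside HuR RIP 2.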
